A study of Drosophila melanogaster with 5 samples.

Results

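The Hox genes and their cofactors were examined in cephalic complexes of Drosophila melanogaster larvae mutant for lethal giant larvae (lgl). Hox genes encode homeodomain transcription factors that give each body segment its identity, and in the fly they lie in the Antennapedia and the bithorax complex. The homeodomain proteins Extradenticle (exd) and Homothorax (hth) bind DNA together with Hox proteins, and hth is needed for exd to enter the nucleus. In the larval nervous system Hox genes are known for patterning the ventral nerve cord, while in the eye-antennal disc hth marks the antenna and the undifferentiated progenitors of the eye.

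The list held 10 genes, the 8 Hox genes lab, pb, Dfd, Scr, Antp, Ubx, abd-A and Abd-B and the 2 cofactors exd and hth. A probe set, a group of short probes on the array that measures one transcript, was counted as a member when the array's annotation gave it the symbol or a synonym of a listed gene. This found 6 probe sets, each with a single symbol, for 4 of the 10 genes, among 11983 named genes in the series. They were 1 probe set each for pb, Dfd and Scr and 3 for Antp. For lab, Ubx, abd-A, Abd-B, exd and hth the annotation named no probe set, and these genes were not analysed here by that rule. 1 further probe set had no gene in the annotation but is listed as hth in a table of the study, and it is described separately.

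The control group was 2 arrays of FRT82B larvae on day 0 of the 3rd instar. The control is named FRT82B after the labels, whereas the study's text calls it wild type (w1118), and this was not resolved here. The other group was 3 arrays of larvae with the null alleles lgl27S3/lglE2S31 on day 4 of a prolonged 3rd instar. Each array held RNA from pooled complexes, 20 pairs per the labels. Genotype and age differed together and cannot be told apart, and FRT82B larvae have no day 4 stage to compare because they pupariate. The methods give brain lobes and eye discs for these arrays but add the ventral ganglion where they describe dissection for imaging, so it is not known whether nerve cord was included. In such bulk tissue fewer cells of a type and less RNA per cell cannot be told apart.

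The question was whether the level of Hox and cofactor transcripts differed between the tumorous and the control tissue. Values are log2 expression, so that a difference of 1 is a doubling, and each change is lgl minus FRT82B with its standard error (SE). A probe set was called changed at a limma adjusted p under 0.05 with an absolute log2 change of at least 1. Of all 18769 probe sets tested, 197 were called, or 1.05%, of which 102 were higher and 95 lower. The labels call the arrays biological replicates, and their small number limits the precision.

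The arrays did not all stand at the same distance. Correlations across probe sets ran from 0.995 to 0.997 among the lgl arrays but reached 0.981 between the FRT82B arrays, and with the lgl arrays FRT82B array 1 correlated at 0.970 to 0.972 and FRT82B array 2 at 0.982 to 0.984. At least 1 log2 unit separated 1550 to 1675 probe sets between FRT82B array 1 and each lgl array, and 717 to 776 between FRT82B array 2 and each lgl array. The 3′ minus 5′ difference of the actin control probe sets, a sign of RNA quality, was 0.71 and 0.73 in FRT82B against 0.35 to 0.58 in lgl. For eIF-4a it was 1.68 and 2.01 against 1.41 to 1.65, and for GAPDH the groups overlapped, at 1.21 and 1.37 against 1.18 to 1.36. Their part in the results was not tested. The labels held for the mutated gene. The l(2)gl probe set stood at 7.74 and 6.74 in FRT82B against 2.44, 2.40 and 2.24 in lgl (log2 change -4.88, SE 0.31, limma adjusted p = 0.0209).

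Of the 6 Hox probe sets, 0 were called changed by limma, beside 1.05% of all probe sets. At an unadjusted p under 0.05, 3 of the 6 were lower and 0 higher, where 9.93% of all probe sets were lower. The same 3 probe sets, 1 for Dfd and 2 for Antp, had all lgl values below both FRT82B values, which held for 20.2% of all probe sets. The 2 probe sets of Antp measure one gene and are not separate observations. The plot of the values on each array shows the 3 probe sets with separated groups and the 3 whose groups overlap.

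**Figure D1:**
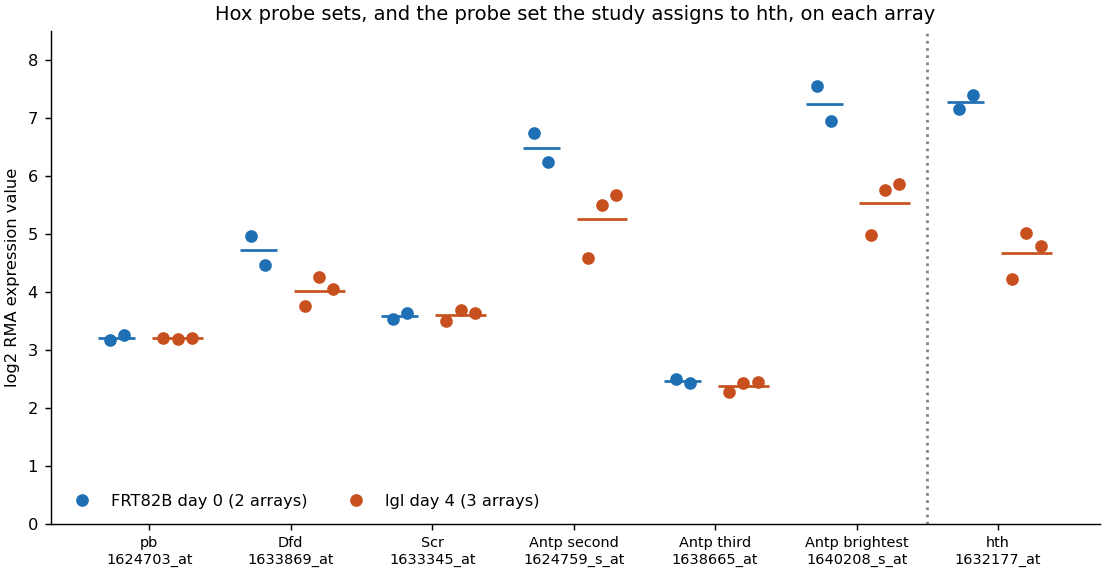
Log2 RMA expression value (vertical axis) of each probe set (horizontal axis) on the 2 FRT82B day 0 arrays (blue) and the 3 lgl day 4 arrays (orange), with group means as lines; the dotted line sets apart the probe set that only the study assigns to hth. The brightest Antp probe set reads 7.55 and 6.95 in FRT82B, against 4.99 to 5.86 in lgl, while the groups overlap for pb and Scr.

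Antp, the Hox gene of the thoracic segments and best known for turning antennae into legs when expressed in the head, had the largest difference of the 4 measured genes. Its brightest probe set had 7.55 and 6.95 for FRT82B arrays 1 and 2, against 4.99, 5.76 and 5.86 for arrays 1, 2 and 3 of lgl. All lgl arrays lay below both FRT82B arrays, with a gap of 1.10 between the nearest arrays of the groups. The means were 7.25 ± 0.42 (SD, n = 2) and 5.54 ± 0.47 (SD, n = 3), which put the level 3.28 times lower in lgl tissue. The log2 change of -1.71 (SE 0.34) had an unadjusted p of 0.00536 in limma and did not pass after adjustment (adjusted p = 0.101). Among all probe sets 0.464% had a lower change.

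The second brightest Antp probe set followed the same order of arrays. It stood at 6.74 and 6.24 in FRT82B against 4.59, 5.49 and 5.67 in lgl, with no overlap. On the log2 scale lgl differed by -1.24 (SE 0.39, limma adjusted p = 0.206), 2.36 times lower. On both of these probe sets FRT82B array 2 was below FRT82B array 1, by 0.51 and 0.59, and lgl array 1 was the lowest of all arrays. The lgl arrays ranged over 1.08 on the second and 0.87 on the brightest. The SD was 0.58 in lgl and 0.36 in FRT82B on the second, and 0.47 and 0.42 on the brightest.

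The third Antp probe set did not share this. It stood at 2.50 and 2.43 in FRT82B against 2.27, 2.43 and 2.45 in lgl, and the groups overlapped. Its log2 change was -0.08 (SE 0.08, limma adjusted p = 0.617). It lay below the median probe set of its array on all 5 arrays, where only 0.73% to 4.69% of probe sets were dimmer. The lowest values of the arrays were 1.98 to 2.09. Its distance from the background was not known, nor whether so dim a probe set could show a difference in Antp.

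The size of the Antp difference depended on the control array. Set against FRT82B array 1 alone, the mean of the lgl arrays was lower by 2.01 on the log2 scale for the brightest probe set, and against FRT82B array 2 alone it was lower by 1.42. For the second the values were -1.49 and -0.99. Without lgl array 1, which read lowest, the change was -1.44 for the brightest probe set and -0.91 for the second. When probe sets dimmer than the median were left out before the fit, the brightest Antp probe set was called lower (limma adjusted p = 0.0456). In that fit 395 of 9384 probe sets were called.

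Dfd, the Hox gene of the mandibular and maxillary segments, had a smaller difference. Its probe set stood at 4.97 and 4.46 in FRT82B against 3.75, 4.26 and 4.05 in lgl. The groups did not overlap, but FRT82B array 2 and lgl array 2 were only 0.20 apart, less than the 0.51 between the FRT82B arrays. The change in log2 terms was -0.70 (SE 0.23, limma adjusted p = 0.217), which is under the fold threshold as well. It was -0.95 against FRT82B array 1 and -0.44 against FRT82B array 2.

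pb and Scr did not differ beyond the spread between arrays. The pb probe set, for the Hox gene of the adult mouthparts, stood at 3.17 and 3.25 in FRT82B against 3.20, 3.19 and 3.20 in lgl, with a log2 change of -0.01 (SE 0.06, limma adjusted p = 0.910). The Scr probe set, for the Hox gene of the labial and first thoracic segment, stood at 3.54 and 3.63 in FRT82B against 3.49, 3.68 and 3.63 in lgl, with a log2 change of 0.02 (SE 0.08, limma adjusted p = 0.917). For both genes the groups overlapped, and both lay below the array median on all 5 arrays. A low level of a transcript and a dim probe set cannot be told apart from these values.

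**Figure D2:**
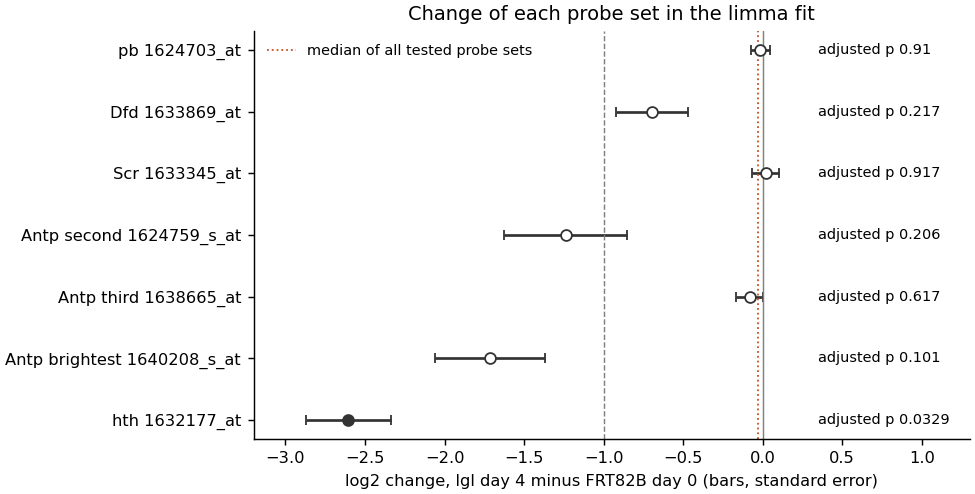
Log2 change in the limma fit, lgl day 4 minus FRT82B day 0 (horizontal axis), of each probe set (vertical axis) with standard errors as bars; filled points were called changed, the dashed line is the fold threshold and the dotted line the median of all tested probe sets. Dfd and 2 Antp probe sets lie below 0 with open points, at -0.70, -1.24 and -1.71, and the probe set assigned to hth is filled at -2.60.

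Over the 4 genes, with the brightest probe set of each, 3 log2 changes were below 0 and the median was -0.36. The median was -0.03 over all named genes and -0.03 over all tested probe sets. Of the 4 genes, 0 were called, beside 88 higher and 73 lower of 11983 named genes. The median is the midpoint of the Dfd and pb values, so the size of the Antp change does not enter it.

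The probe set that the study assigns to the cofactor gene hth was lower in lgl tissue. It had 7.16 and 7.41 for FRT82B arrays 1 and 2, against 4.22, 5.02 and 4.79 for arrays 1, 2 and 3 of lgl. The gap between the nearest arrays of the groups was 2.14, against 0.25 between the FRT82B arrays and 0.79 across the lgl arrays. The means of 7.28 ± 0.17 (SD, n = 2) and 4.68 ± 0.41 (SD, n = 3) put it 6.08 times lower. The change in log2 terms was -2.60 (SE 0.26, limma adjusted p = 0.0329), and 0.117% of all probe sets had a lower change.

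This value is a description only. The name came from a list of mRNAs that had passed the same contrast on the same arrays, so a probe set of hth that did not change could not have been named in this way, and the value was known before it was chosen. FRT82B array 2 was above FRT82B array 1 here, whereas it was below it for Dfd and for all 3 Antp probe sets. The call was lost without FRT82B array 1 (limma adjusted p = 0.0774) and without lgl array 1, 2 or 3 (limma adjusted p = 0.125, 0.168 and 0.170), with log2 changes from -2.78 to -2.38 over all arrays left out in turn. It was also lost with array weights (limma adjusted p = 0.247) and with the replicate number as a block (limma adjusted p = 0.308). The block fit takes no part of its change from lgl array 3, which has no FRT82B array of its number. It is therefore not separate from leaving that array out. With any lgl array left out 0 probe sets of the whole table were called.

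The closest patterns to the hth probe set were sought among 13641 named probe sets. Likeness was measured as the root mean square difference over the 5 arrays after the mean of each probe set was subtracted. This removes the level of a probe set but not the size of its change, so changes of like size lie near. Ilp2, an insulin-like peptide of the brain's neurosecretory cells, was nearest at 0.25 on the log2 scale. The next were nvd at 0.29, an enzyme of ecdysone synthesis, CG14566 at 0.32, CG4408 at 0.33 and E(spl)m5-HLH at 0.34, a transcriptional repressor of the Notch pathway. These 5 had log2 changes from -2.68 to -2.17, and 1 of the 13641 lay within 0.25. The brightest Antp probe set was farther away, at 0.52, and Dfd at 0.97. Their log2 changes were smaller, at -1.71 and -0.70, which enters these distances.

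The neighbours of the Hox genes had small differences. Of 17 other listed genes of the Antennapedia and bithorax complexes, 10 were measured, 0 were called, and the median log2 change was -0.04. The differences farthest from 0 were those of the cuticle gene Ccp84Ag (-0.18, SE 0.10, limma adjusted p = 0.418) and of bcd, the anterior determinant of the egg (-0.15, SE 0.08, limma adjusted p = 0.407). 7 of the 10 lay below the array median on all 5 arrays.

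The other TALE homeobox genes are of the family to which exd and hth belong. Of 5 such genes 1 was called, beside 1.05% of all probe sets, and it was lower. This was vis, a homologue of vertebrate TGIF known for its part in spermatogenesis. It stood at 4.79 and 4.43 in FRT82B against 2.58, 2.33 and 2.66 in lgl, without overlap, with a change of -2.08 on the log2 scale (SE 0.16, limma adjusted p = 0.0232). The call was lost without FRT82B array 1 (limma adjusted p = 0.0545), and vis was not tested when probe sets dimmer than the median were left out. The Iroquois genes mirr and ara, which pattern the dorsal eye, had log2 changes of -0.75 (limma adjusted p = 0.454) and 0.50 (limma adjusted p = 0.423), and FRT82B array 2 was above FRT82B array 1 by 1.54 for mirr. The median over the 5 genes was 0.15.

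**Figure D3:**
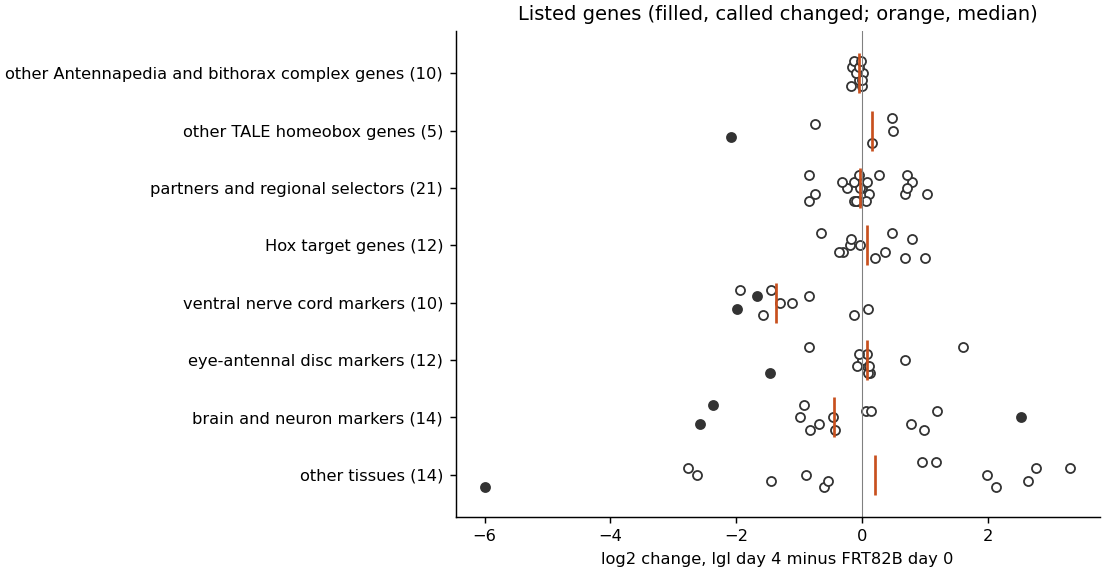
Log2 change, lgl day 4 minus FRT82B day 0 (horizontal axis), of the brightest probe set of each measured gene in 8 lists (vertical axis, with the number of genes measured); filled points were called changed and orange lines are list medians. The ventral nerve cord markers have the lowest median, -1.37, and the other genes of the Hox complexes lie between -0.18 and 0.01.

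Genes that act with or beside Hox proteins in giving a region its identity had differences in both directions. Of 23 such genes 21 were measured and 0 were called, with a median log2 change of -0.04. The head gap gene btd was 4.82 and 6.05 in FRT82B against 6.44 to 6.50 in lgl (log2 change 1.03, SE 0.38, limma adjusted p = 0.261). The selector ct, needed for antenna and sense organ identity, had a log2 change of -0.85 (SE 0.21, limma adjusted p = 0.141). Against FRT82B array 1 alone the list median was 0.27, and against FRT82B array 2 alone it was -0.30.

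Of 15 genes known as direct Hox targets in some fly tissue, 12 were measured and 0 were called, and the median log2 change was 0.09. bab1, a regulator of leg and abdominal patterning, had 5.03 and 6.15 in FRT82B against 6.50 to 6.65 in lgl (log2 change 1.00, SE 0.35, limma adjusted p = 0.243). ems, a head gap gene and target of Abd-B, had a log2 change of 0.79 (SE 0.35, limma adjusted p = 0.345). For both genes FRT82B array 2 lay closer to the lgl arrays than FRT82B array 1 did. Without FRT82B array 2, 3 of the 12 were called, all higher.

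Markers of ventral nerve cord neurons mostly had log2 changes below 0. Of 11 listed genes 10 were measured, and 2 were called, both lower, beside 1.05% of all probe sets. The median log2 change was -1.37. In 9 of the 10 every lgl array lay below both FRT82B arrays, which held for 20.2% of all probe sets. Most of the list are peptide genes, and its identity genes ap, eve and tsh had log2 changes of 0.10, -0.13 and -0.85. The peptide genes of the brain and other tissue lists, Ilp2, Dh44 and Akh, had log2 changes of -2.37, -2.58 and -2.62. A low value was thus not particular to nerve cord markers. The mean log2 level over the 10 genes was 7.46 and 7.07 in FRT82B against 5.87 to 6.24 in lgl, where lgl array 1 was the lowest, as it was for Antp, Dfd and the hth probe set. No marker of the list lay below the array median on all 5 arrays, but eve did on 3. The nearest arrays of its groups were only 0.04 apart. The part of these markers in the Hox values was not tested. Some of these genes are also expressed in the brain. Without FRT82B array 1, 0 of the 10 were called, and without FRT82B array 2, 4.

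The 2 called markers encode neuropeptides. FMRFa stood at 7.84 and 8.10 in FRT82B against 5.72, 6.01 and 6.24 in lgl (log2 change -1.98, SE 0.19, limma adjusted p = 0.0301). Mip, the myoinhibitory peptide gene, stood at 7.67 and 7.74 in FRT82B against 6.14, 5.96 and 6.02 in lgl (log2 change -1.66, SE 0.08, limma adjusted p = 0.0152). Capa, another peptide gene, was picked out after its values were seen because its pattern lay nearest to Antp in the list. It stood at 8.88 and 8.30 in FRT82B against 6.46, 7.07 and 7.54 in lgl (log2 change -1.57, SE 0.38, limma adjusted p = 0.137), at a distance of 0.14 from the brightest Antp probe set. Of 13641 named probe sets, 1 other lay as near, that of RapGAP1, at 0.14. The distance between the brightest and the second Antp probe set was 0.24, and 10 named probe sets, Capa included, lay at least as near to the brightest. The log2 changes of Capa and of the brightest Antp probe set, -1.57 and -1.71, were alike in size, which enters their distance. Capa was chosen for its nearness, so its rank tests nothing. These distances are descriptions, with no test.

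**Figure D4:**
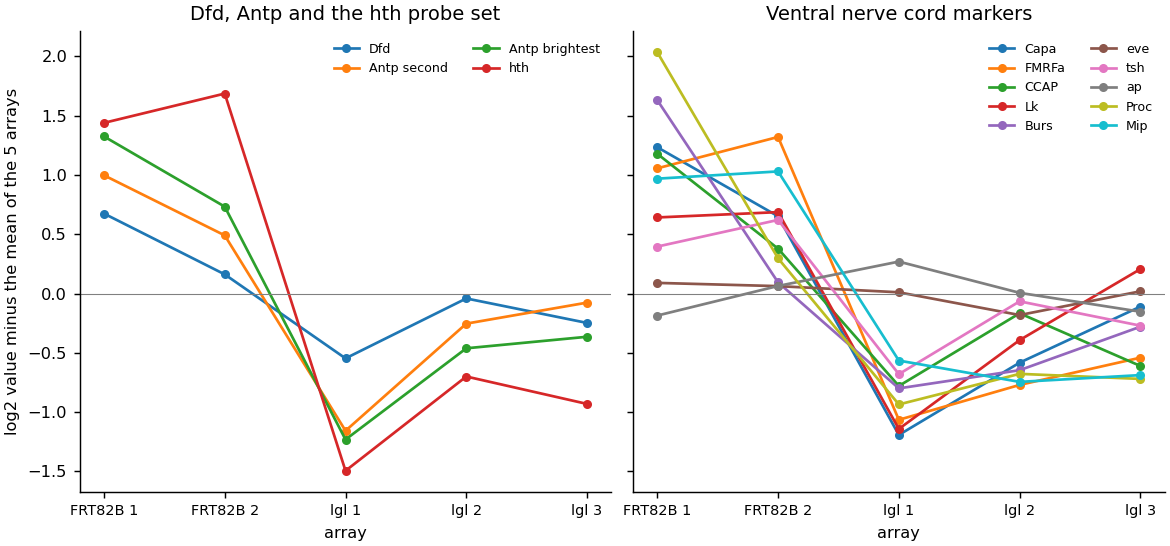
Log2 value minus the mean over the 5 arrays (vertical axis) on each array (horizontal axis) for Dfd, 2 Antp probe sets and the probe set assigned to hth (left) and for 10 ventral nerve cord markers (right); lines only join the values of a gene, since arrays of a group have no order. Capa, chosen after its values were seen, lies at a distance of 0.14 from the brightest Antp probe set, and lgl array 1 is the lowest for all 4 probe sets on the left.

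The markers of the eye-antennal disc had differences in both directions. The median log2 change over 12 eye-antennal disc markers was 0.08, and 1 was called, beside 1.05% of all probe sets. This was ato, the proneural gene of the first photoreceptors, which stood at 5.53 and 6.05 in FRT82B against 4.25, 4.48 and 4.24 in lgl (log2 change -1.47, SE 0.19, limma adjusted p = 0.0499). Optix, an eye determination gene, had a log2 change of 1.60 (SE 0.27, limma adjusted p = 0.0751), and ct is given above. Without FRT82B array 1, 0 of the 12 were called, and without FRT82B array 2, 3. The mean log2 level over these 12 genes was 5.02 and 5.55 in FRT82B against 5.20 to 5.51 in lgl, so that the groups overlapped.

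Of 15 brain and neuron markers 14 were measured and 3 were called, 2 lower and 1 higher, beside 1.05% of all probe sets. The median log2 change was -0.44, with 8 of the 14 below 0. Every lgl array lay below both FRT82B arrays for 6 of them, which held for 20.2% of all probe sets. For 4 of them every lgl array lay above both, and the share of all probe sets that did so was not computed. The diuretic hormone gene Dh44 (log2 change -2.58, SE 0.22, limma adjusted p = 0.0274) and Ilp2 (log2 change -2.37, SE 0.09, limma adjusted p = 0.0109) were lower, and mira, an adaptor protein of dividing neuroblasts, was higher (log2 change 2.54, SE 0.26, limma adjusted p = 0.0324). Without FRT82B array 1 the call of Dh44 was lost (limma adjusted p = 0.0520), and without FRT82B array 2, 8 of the 14 were called, 5 of them lower. The mean log2 level over the 14 genes was 8.22 and 8.28 in FRT82B against 7.93 to 8.04 in lgl.

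Of 17 markers of tissues that dissection could leave attached, 14 were measured and 1 was called, beside 1.05% of all probe sets. The ring gland gene spok, for ecdysone synthesis, was lower (log2 change -6.00, SE 0.37, limma adjusted p = 0.0209). The fat body gene Lsp2 had a log2 change of 3.32 (SE 0.97, limma adjusted p = 0.185) and the ring gland gene phtm one of -2.77 (SE 0.50, limma adjusted p = 0.0853). Without FRT82B array 1 the call of spok was lost (limma adjusted p = 0.0560), and without FRT82B array 2, 4 of the 14 were called, 3 of them higher. The mean log2 level was 5.50 and 6.40 in FRT82B against 5.89 to 6.07 in lgl. No marker of this list or of the brain list lay below the array median on all 5 arrays.

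**Figure D5:**
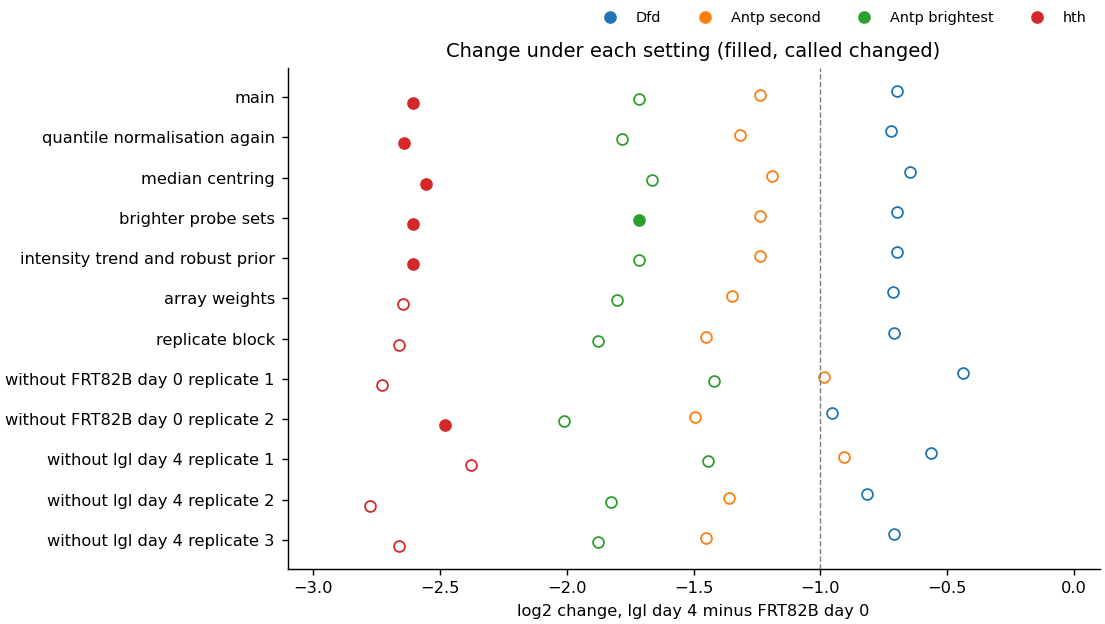
Log2 change, lgl day 4 minus FRT82B day 0 (horizontal axis), of Dfd, 2 Antp probe sets and the probe set assigned to hth under each setting of the fit (vertical axis); filled points were called changed and the dashed line is the fold threshold. The hth probe set stays between -2.78 and -2.38, and the brightest Antp probe set is filled once, with the dimmer probe sets left out.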

How the data were processed

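RNA of cephalic complexes was hybridised to Affymetrix Drosophila 2.0 arrays, and the groups were taken from the titles. The authors normalised the arrays with RMA and deposited log2 expression values. Software versions are not given in the sources used here. Because RMA equalises the distributions of the arrays, a shift common to most transcripts cannot be detected. A control array that the submitters set aside was not analysed here.

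Genes were named from the array's annotation, updated through gene identifiers. Of 18769 tested probe sets (183 control probe sets left out), 13647 had 1 symbol, 402 had several and 4720 were unnamed. For 4 listed genes the current name was supplied by hand after seeing the annotation. Groups were compared with limma 3.58.1 (lmFit, eBayes; R 4.3.3) as in the study's methods, with p-values adjusted over the whole table by Benjamini-Hochberg and with code tested on simulated data. Gene lists used the brightest probe set of each gene.

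Members and lists were chosen with earlier results of these data known. Every member probe set was to be named, with l(2)gl and, from each list, up to 4 called genes of largest absolute change, or up to 2 more genes where fewer than 2 were called. Beside a called member, the 5 closest patterns were to be given. By the member rule none was called, and the search was run for the probe set assigned to hth instead. The distances from Antp were not part of that plan. The alternatives were repeated quantile normalisation, median centring, brighter probe sets only, array weights, a robust prior with an intensity trend, a replicate block, each array left out, no fold threshold, and the mean of the probe sets of a gene.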

Additional observations from a re-analysis of the deposited data

How the results depend on the processing

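The brightest and the second Antp probe set, Dfd and the probe set assigned to hth were lower in lgl tissue under every setting run. pb and Scr, at 0, changed sign: pb was 0.048 with repeated quantile normalisation, 0.034 with median centring and from -0.054 to 0.024 with 1 array left out, and Scr was from -0.027 to 0.074 with 1 array left out. The median over the 4 member genes moved by less than the spread between lgl arrays under the settings run for it. The count over all probe sets was 395 among the brighter probe sets, 12 with array weights, 305 with no fold threshold, and from 0 (without any lgl array) to 1306 (without FRT82B array 2) with 1 array left out; it was 71 without FRT82B array 1. Member probe sets called numbered 1 of 3 tested among the brighter probe sets, where 395 of all 9384 tested were called, and 0 otherwise.

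With the replicate block, 0 probe sets were called, the lists included, against 616 at an unadjusted p under 0.05 with a log2 change of at least 1. For l(2)gl the log2 change was -4.82 (limma adjusted p = 0.308). No FRT82B array shares the number of lgl array 3, so the block leaves that array out of the change. The l(2)gl change was likewise -4.82 without lgl array 3, so the block is not a separate check. Same-numbered arrays did not deviate together beyond a correlation of 0.07. With 2 FRT82B arrays, whose deviations mirror each other, this cannot settle whether they share more than a number. With array weights 0 genes were called in the TALE, ventral nerve cord, eye-antennal, brain and other tissue lists. Among the brighter probe sets 0 TALE, 2 eye-antennal and 4 other tissue genes were called. The brain list had 5 and the other tissue list 2 called genes with either repeated normalisation or median centring, and the other tissue list had 2 with the intensity trend. With 1 array left out, called genes ranged from 0 to 1 for TALE genes, 0 to 4 for partners and selectors, 0 to 3 for Hox targets and for eye-antennal markers, 0 to 4 for ventral nerve cord markers, 0 to 8 for brain markers and 0 to 4 for other tissues, and l(2)gl ranged from -5.38 to -4.38. The upper ends of these counts come from the fit without FRT82B array 2, where calls also rose over the whole table. A lone FRT82B array takes its spread from the lgl arrays. The cause of these differences was not tested.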
